A study of Homo sapiens with 4 samples.

Results

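The comparison described here set Mino cells carrying a doxycycline-inducible short hairpin against BTK beside Mino cells carrying a control vector named SC4. Both stable lines were made with a tet-on system and had received doxycycline for 48 hours, and there was 1 RNA library of each. The genes described are the symbols listed above 0 FPKM (fragments normalised to transcript length and to the mapped fragments of a library) in both Mino libraries, which were 15181 of the 25277 symbols in the deposited table. The series held 4 libraries in all, and the other two came from Z138 cells with the same vectors and the same doxycycline treatment. Mino and Z138 are established human cell lines derived from mantle cell lymphoma, a cancer of mature B cells. The study concerned BTK, the survival protein BCL2 and FBXO10, part of a ubiquitin ligase. The model rests on 1 hairpin in 1 culture, the cargo of the control vector is not stated in the labels, and no culture without doxycycline was among the samples.

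BTK is a cytoplasmic tyrosine kinase of the TEC family. When the B cell receptor is engaged, LYN and SYK are activated, the adaptor BLNK assembles a complex, and BTK there activates the phospholipase PLCG2. The resulting second messengers drive calcium entry, NF-kB and MAP kinases. BTK inhibitors are used to treat mantle cell lymphoma.

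With 1 library per group there was no replicate error, so no test was made, no p-value is given, and differences are described by size. The size is the log2 of (hairpin FPKM + 1) over (control FPKM + 1), called the log2 ratio below. The added 1 understates differences of genes at low levels. Read depth per library is unknown, so no counting interval is given. A difference between 2 cultures cannot be told apart from a difference made by the hairpin, by unequal growth of the cultures or by library preparation. RNA was measured in bulk, so fewer cells of a type and less RNA per cell cannot be told apart.

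The 8 B cell markers fixed for the label check (among them MS4A1 and PAX5) were all at 1 FPKM or more, with summed levels of 1394 FPKM in the control and 1381 FPKM in the hairpin library. CD79A, a signalling chain of the B cell receptor, stood at 725 and 744 FPKM. SOX11, a transcription factor typical of mantle cell lymphoma, was at 23.6 FPKM in the control and 21.5 FPKM in the hairpin library. CCND1, the cyclin whose translocation marks that lymphoma, was at 3.18 and 2.62 FPKM in the Mino libraries against 591 and 600 FPKM in the Z138 libraries. The identity of the Mino line was not tested. The 6 T cell markers summed to 2.72 and 2.13 FPKM, with CD3G and CD2 at 0 in both libraries. The 5 NK cell markers summed to 0.942 and 1.43 FPKM, the 5 monocyte and macrophage markers to 0.33 and 0.473 FPKM, and the 5 erythroid markers to 0.76 and 0.234 FPKM. The 5 fibroblast and endothelial markers summed to 7.19 and 6.08 FPKM and the 4 epithelial markers to 39.9 and 36.6 FPKM, most of it KRT8.

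Across the 4 libraries, listed FPKM summed to between 669013 and 740192, and between 14953 and 16007 symbols were above 0. Cytosolic ribosomal protein genes took 38.9% of the sum in the Mino control and 41.1% with the hairpin. In the Mino pair 8602 symbols were at 0 in both libraries, 668 in the control only and 826 in the hairpin library only. An exact 0 can be a failed estimate. Of the 32 symbols at 0 in 1 Mino library and at 5 FPKM or more in the other, 31 were small noncoding RNAs. The other was the cyclophilin gene PPIE, listed at 0 in the control and at 51.9 FPKM in the hairpin library, and at 30.3 and 32.0 FPKM in the Z138 libraries.

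The BTK level was 37.0 FPKM in the control library and 9.84 FPKM in the hairpin library of Mino, which gives a log2 ratio of −1.81. The hairpin library thus held 26.6% of the control level. In Z138 the same gene was at 51.0 and 12.4 FPKM, a log2 ratio of −1.96. The BTK level was thus lower in the hairpin library of both lines. BCL2, which blocks mitochondrial cell death, stood at 491 FPKM in the control and 297 FPKM in the hairpin library of Mino (log2 ratio −0.72, 60.5% of control). In Z138, BCL2 was at 61.2 and 54.0 FPKM (log2 ratio −0.18). FBXO10, the substrate-binding subunit of a ubiquitin ligase that targets BCL2, was at 17.4 and 14.8 FPKM in Mino (log2 ratio −0.22, 85.2% of control). Its log2 ratio lay inside the central 95% of Mino genes at its level, given below, and that of BCL2 lay outside it.

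The typical gene was at nearly the same level in both Mino libraries. The median log2 ratio over all 15181 symbols was −0.01, with 7338 symbols above 0 (48.3%) and 7843 below 0 (51.7%). Among the 4464 symbols between 5 and 20 FPKM, the central 95% of log2 ratios ran from −0.42 to 0.36. For the 2994 symbols between 20 and 100 FPKM it ran from −0.45 to 0.37, and for the 749 at 100 FPKM or more from −0.56 to 0.43. In total 19 symbols were at least 2-fold higher in the hairpin library (0.125% of all) and 21 at least 2-fold lower (0.138%). At 1.5-fold the counts were 95 higher (0.626%) and 145 lower (0.955%). With a smaller threshold of 0.32 on the log2 scale they were 577 higher (3.80%) and 765 lower (5.04%). In the lists below, past 0.32 or past −0.32 means a log2 ratio at least that far from 0. These shares are the background for the gene lists below. Where each library was rescaled to the same total without ribosomal protein and small RNA genes, the balance at 1.5-fold turned from 39.6% higher to 53.9% higher (130 higher and 111 lower), and at 2-fold from 47.5% to 58.5%.

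**Figure D1:**
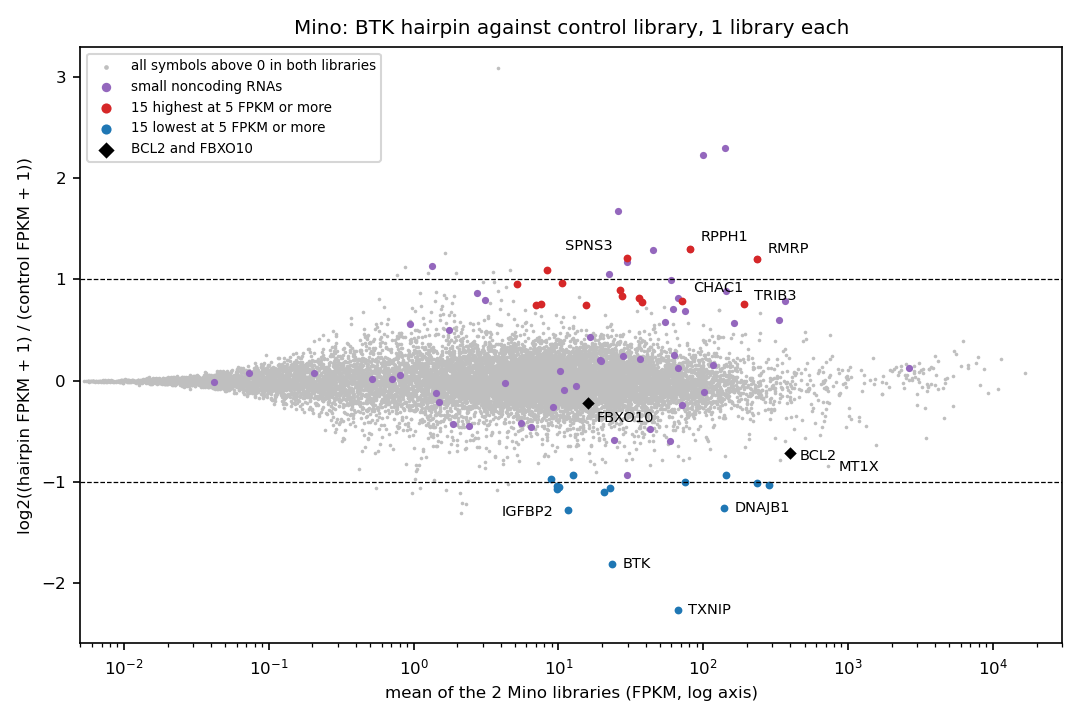
Each point is a symbol above 0 in both Mino libraries: the x axis is the mean of both libraries in FPKM (log axis) and the y axis the log2 ratio of hairpin to control, with dashed lines at 2-fold. Most symbols lie near 0 at all levels, TXNIP (−2.27) and BTK (−1.81) lie lowest, and small noncoding RNAs make up much of what lies above 2-fold.

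The 19 symbols at least 2-fold higher were 8 named genes, 9 small noncoding RNAs and 2 readthrough symbols. The 21 at least 2-fold lower were 18 named genes and 3 readthrough symbols. Small noncoding RNAs were a small class: without them 15127 of the 15181 symbols remained, 10 at least 2-fold higher and 21 at least 2-fold lower. At 1.5-fold the class had 18 symbols higher and 3 lower. Highest of the named genes was H3F3A, a histone H3.3 gene, at 0.0118 FPKM in the control and 7.61 FPKM in the hairpin library. H3F3A has near-identical copies, so its value is uncertain, and it was named after its values were seen. Of genes at a mean of 5 FPKM or more, the named genes past 2-fold on the higher side were SPNS3 and SLC12A8. SPNS3, a member of the Spinster family of transporters, was at 17.7 and 42.1 FPKM (log2 ratio 1.21). SLC12A8, a member of the cation-chloride cotransporter family, was at 4.97 and 11.7 FPKM (log2 ratio 1.09). Just outside 2-fold stood C4orf48 (6.83 and 14.3 FPKM, log2 ratio 0.97), GH1 (3.21 and 7.19 FPKM, 0.96) and BCYRN1 (18.2 and 34.7 FPKM, 0.90). GH1, the growth hormone gene, has near-identical neighbours and BCYRN1 shares sequence with Alu repeats, so reads of these genes may have been split. Further genes of the highest 15 were INHBE, an activin subunit, at 19.5 and 35.7 FPKM, MFAP4, a microfibril protein, at 27.6 and 48.0 FPKM, and OSCAR, an immunoglobulin-like receptor, at 11.3 and 19.7 FPKM.

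On the lower side TXNIP stood apart, at 111 FPKM in the control and 22.2 FPKM in the hairpin library (log2 ratio −2.27, 20.0% of control). Its ratio was further from 0 than that of BTK. IGFBP2, which binds insulin-like growth factors, was at 16.8 and 6.34 FPKM (log2 ratio −1.28). TNNI2, a fast skeletal troponin, was at 28.5 and 12.8 FPKM (−1.10), and NRN1, neuritin, at 14 and 6.24 FPKM (−1.05). NDUFA4L2, a mitochondrial protein known to be induced by low oxygen, was at 31.1 and 14.4 FPKM (−1.06). IL4I1, a secreted enzyme that oxidises aromatic amino acids, was at 190 and 99 FPKM (−0.93). All of these were lower in the hairpin library by more than the central 95% of genes at their level. These genes were named because their ratios were among the lowest, so that result follows from the choice. No conclusion is drawn from it. RPL21, a ribosomal protein gene with many near-identical copies, was at 380 and 186 FPKM (−1.03) and its value is uncertain. Just inside 2-fold were FCRL2 (log2 ratio −1.04), RPL21 and HILPDA (−1.01), and just outside were HSPA6 (−1.0), HIST1H2BN (−0.97) and IL4I1.

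The genes of amino acid supply and of the transcription factor ATF4 were on the higher side. ATF4 is translated when amino acids run short or unfolded proteins collect in the endoplasmic reticulum, and it switches on genes for amino acid synthesis, amino acid import and tRNA charging. Of 35 measured genes on the list of ATF4 targets and amino acid supply, ATF4 itself included, 32 had log2 ratios above 0. Of them 20 were past 0.32 and 1 was past −0.32, and the median was 0.38 against −0.01 over all symbols. CHAC1, which degrades glutathione, was at 52.3 FPKM in the control and 91.2 FPKM in the hairpin library (log2 ratio 0.79). TRIB3, a pseudokinase that restrains ATF4 and AKT, was at 141 and 239 FPKM (0.76). These are among the 15 highest ratios of all genes at 5 FPKM or more. The same holds for CBS, an enzyme that joins homocysteine and serine (5.40 and 9.80 FPKM, 0.76), and SLC6A9, a glycine importer (4.96 and 9.04 FPKM, 0.75). In serine synthesis, PSAT1 was at 39.8 and 66.7 FPKM (0.73). PCK2, the mitochondrial enzyme that makes phosphoenolpyruvate, was at 33.2 and 53.4 FPKM (0.67). CEBPB, a partner transcription factor, was at 16.1 and 25.8 FPKM (0.65). ASNS, asparagine synthetase, was at 115 and 156 FPKM, and DDIT3, a transcription factor of prolonged stress, at 111 and 150 FPKM, each with a log2 ratio of 0.43. The message of ATF4 itself was at 698 and 806 FPKM (0.21), inside the central 95% of genes at its level. The listed gene past −0.32 was PPP1R15A, the phosphatase subunit that restores translation, at 161 and 124 FPKM (−0.37). ASS1, argininosuccinate synthetase, was not on that list and was at 98.1 and 160 FPKM (0.70).

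Promoter letters were read for genes of this group because their members lay on the same side. RefSeq promoters (GRCh38.p14, 250 bases before to 50 after the start, both strands searched) were matched by symbol for 11705 of the 15181 symbols. The C/EBP-ATF response element, searched as TGATGNAA, was in 4 of 28 matched genes of the ATF4 list (14.3%) and in 1.76% of all promoters searched. The 4 were SLC3A2, SLC7A1, ASNS and CHAC1, with a median log2 ratio of 0.43 against 0.32 for the other matched members. A match is a description of letters, not of a bound site. The lists searched here and below were chosen as genes that a known factor controls. A share above that of all promoters can thus come from the choice of list and says nothing about these libraries. The stretches around the matches are shown for CHAC1, chr15:40953227-40953304 on the plus strand, where the element is on the opposite strand, and for ASNS, chr7:97872434-97872511 on the minus strand. Capitals mark the match.
CHAC1: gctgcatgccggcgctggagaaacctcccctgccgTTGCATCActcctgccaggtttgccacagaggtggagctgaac
ASNS: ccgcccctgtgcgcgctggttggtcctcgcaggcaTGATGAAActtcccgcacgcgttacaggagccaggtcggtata

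Enzymes that charge tRNAs in the cytosol were on the same side by smaller amounts. Of 22 measured cytosolic aminoacyl-tRNA synthetases and their scaffold proteins, 16 were above 0, 4 were past 0.32 and none was past −0.32, with a median of 0.18. MARS, which charges methionine, was at 63.1 and 94.2 FPKM (log2 ratio 0.57), and SARS, which charges serine, at 108 and 146 FPKM (0.44). WARS, for tryptophan, was at 90.8 and 117 FPKM (0.36). HARS, for histidine, went the other way at 18.3 and 15 FPKM (−0.27), as did DARS, for aspartate, at 60.9 and 50.6 FPKM (−0.26). The element TGATGNAA was in 6 of 16 matched promoters of this list, which were CARS, AARS, NARS, IARS, TARS and MARS (37.5%, beside 1.76% of all promoters). Their median log2 ratio was 0.21, against 0.09 for the list's other matched members. The 16 measured mitochondrial aminoacyl-tRNA synthetases had a median of −0.05, with none past 0.32 or −0.32.

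Genes of protein folding in the endoplasmic reticulum were also higher in the hairpin library. When unfolded proteins collect there, the sensors ERN1, EIF2AK3 and ATF6 raise the amount of chaperones, disulfide isomerases and degradation factors. Of 40 measured genes of this response, 36 had log2 ratios above 0, 15 were past 0.32 and none was past −0.32, with a median of 0.26. SDF2L1, a partner of the chaperone HSPA5, was at 25.5 and 45.8 FPKM (log2 ratio 0.82). XBP1, the transcription factor spliced by ERN1, was at 98.4 and 160 FPKM (0.70). HSPA5, the main chaperone of the compartment, was at 91.5 and 131 FPKM (0.51). MANF (18.4 and 27.2 FPKM, 0.54), HYOU1 (37.1 and 53.3 FPKM, 0.51) and PDIA3, a disulfide isomerase (52.8 and 74.5 FPKM, 0.49), were higher as well. The sensors themselves were not: ERN1 was at 10.7 and 10.3 FPKM, EIF2AK3 at 12 and 11.3 FPKM, and ATF6 at 5.41 and 5.26 FPKM. FPKM values do not separate spliced from unspliced XBP1 message. XBP1 also stands on the lists of B lineage regulators and plasma cell genes named further on.

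The ER stress response element, searched as CCAAT and CCACG with 9 bases between them, was in 7 of 36 matched promoters of this list (19.4%) and in 16 of all 11705 (0.137%). The 7 were CANX, ERO1LB, HSP90B1, CALR, CRELD2, HSPA5 and XBP1. Their median log2 ratio was 0.21, against 0.29 for the list's other matched members, so members with these letters were not the further from 0. XBP1 is shown at chr22:28800570-28800656 and HSPA5 at chr9:125241356-125241444, both on the minus strand with the element in capitals.
XBP1: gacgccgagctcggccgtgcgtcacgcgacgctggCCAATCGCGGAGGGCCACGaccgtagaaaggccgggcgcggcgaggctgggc
HSPA5: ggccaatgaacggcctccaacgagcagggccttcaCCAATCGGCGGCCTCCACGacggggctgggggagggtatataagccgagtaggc

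Several RNAs that are not translated were higher too. RPPH1, the RNA of RNase P, which trims the front end of tRNAs, was at 46.6 and 116 FPKM (log2 ratio 1.3). RMRP, the RNA of the related RNase MRP, was at 143 and 329 FPKM (1.2). In Z138 the same pair was also higher in the hairpin library, with log2 ratios of 2.32 and 1.75. The protein subunits of these enzymes were near the background: over all 12 measured members of the list, RNAs included, the median was 0.08 and no protein subunit was past 0.32 or −0.32. Small nucleolar RNAs past 2-fold, named after their values were seen, included SNORA67 at 46.9 and 235 FPKM (2.30) and SNORA61 at 34.5 and 165 FPKM (2.23). SNORA61 was at 114 FPKM in the Z138 control and listed at 0 in the Z138 hairpin library. Small noncoding RNAs also made up 31 of the 32 symbols at 0 in 1 Mino library and at 5 FPKM or more in the other. Their levels, those of RPPH1 and RMRP included, are therefore uncertain, and a rise with the hairpin was not tested. Small nucleolar RNA host genes carry small nucleolar RNAs in their introns. Most of those listed make long RNAs whose spliced message is cleared by nonsense-mediated decay when translated. The list also holds protein-coding genes such as RPSA and EIF4A2. Of its 21 members 17 were above 0, with 7 past 0.32, none past −0.32 and a median of 0.18. SNHG1 was at 189 and 302 FPKM (0.67), ZFAS1 at 420 and 588 FPKM (0.48), and GAS5 at 632 and 866 FPKM (0.45). The 25 measured genes of nonsense-mediated decay and translation control had a median of −0.08, and 2 were past −0.32.

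**Figure D2:**
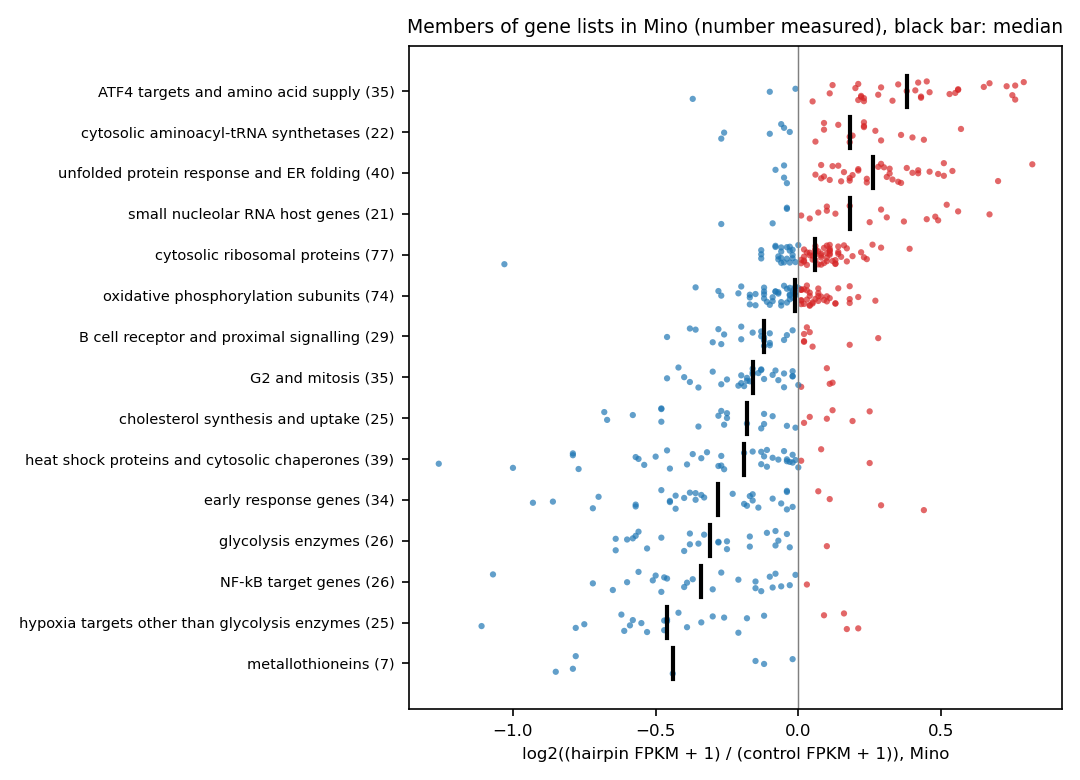
Each point is a member of a gene list measured in Mino, with the log2 ratio of hairpin to control on the x axis, lists on the y axis with the number measured, and a black bar at the median. ATF4 targets (median 0.38) and the unfolded protein response (0.26) lie mostly above 0, while hypoxia targets (−0.46), metallothioneins (−0.44) and NF-kB targets (−0.34) lie mostly below it.

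TXNIP, the gene with the lowest ratio, encodes an arrestin that restrains glucose uptake and thioredoxin, and it is known as a target of the glucose-sensing factors MLXIP and MLXIPL with their partner MLX. Its relative ARRDC4, another target of these factors, was at 1.85 FPKM in the control and 0.366 FPKM in the hairpin library (log2 ratio −1.06). KLF10, a transcription factor induced by glucose in liver, was at 21.1 and 11.7 FPKM (−0.80). The factors themselves differed little: MLXIP was at 11.1 and 10.5 FPKM and MLX at 15.6 and 16.3 FPKM, while MLXIPL was at 0.0153 FPKM in the control and listed at 0 in the hairpin library. Of the 15 measured genes on this list 12 were below 0, 6 were past −0.32 and none was past 0.32, with a median of −0.17. In Z138 the 3 genes furthest below 0 in Mino lay above 0, with TXNIP at 56.4 and 79.4 FPKM (0.49), ARRDC4 at 1.37 and 2.19 FPKM (0.43), and KLF10 at 9.98 and 14.9 FPKM (0.54). HK2, −0.56 in Mino, was below 0 in Z138 as well (−0.23). Over the whole list 10 of 15 were above 0 in Z138 with a median of 0.06. That is near the Z138 background, where 8240 of 14549 symbols were above 0 and the median was 0.02. The contrast between the lines in TXNIP, ARRDC4 and KLF10 was not tested. The arrestins of the list at 5 FPKM or more besides TXNIP differed little in Mino: ARRDC1 was at 27 and 28.6 FPKM (0.08), ARRDC2 at 11.7 and 12.3 FPKM (0.06) and ARRDC3 at 14.8 and 13.6 FPKM (−0.12). A carbohydrate response element, searched as CACGNG and CNCGNG with 5 bases between them, was in 1 of 13 matched promoters of the list, that of TXNIP, and in 0.829% of all promoters. It is shown in capitals at chr1:145996616-145996702 on the minus strand.
TXNIP: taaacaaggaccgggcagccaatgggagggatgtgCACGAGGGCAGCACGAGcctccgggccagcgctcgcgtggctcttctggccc

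Heat shock proteins were lower in the hairpin library. These chaperones fold and refold proteins, most of those listed in the cytosol and a few in mitochondria, and HSF1 switches on their genes when misfolded proteins collect. Of 39 measured members of the list, HSF1 included, 35 had log2 ratios below 0. On that list 14 were past −0.32 and none was past 0.32, with a median of −0.19. DNAJB1, an HSP40 cochaperone, was at 197 FPKM in the control and 81.5 FPKM in the hairpin library (log2 ratio −1.26). HSPA6, an inducible HSP70, was at 100 and 49.6 FPKM (−1.0). HSPA8, the constitutive HSP70, was at 432 and 249 FPKM (−0.79), and HSPH1, an HSP110, at 66.3 and 37.9 FPKM (−0.79). SERPINH1, a collagen chaperone that resides in the endoplasmic reticulum, was at 101 and 59.0 FPKM (−0.77). The HSP90 genes HSP90AA1 and HSP90AB1 were at 603 and 405 FPKM (−0.57) and at 764 and 524 FPKM (−0.54). HSF1 was at 43.8 and 42.9 FPKM (−0.03). HSPA9, the mitochondrial HSP70 and a member above 0, was at 79.5 and 95.0 FPKM (0.25). HSPA1A and HSPA1L were listed at 0 in both libraries and HSPA1B at 0 and 0.022 FPKM, so the best known inducible HSP70 genes gave no ratio. As an exact 0 can be a failed estimate, their expression stays unknown.

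The heat shock element, searched as GAA, TTC and GAA with 2 bases between neighbours, was in 6 of 34 matched promoters of the list (17.6%) against 0.359% of all promoters. They belonged to HSPA6, HSPA8, SERPINH1, DNAJA1, CHORDC1 and DNAJB6, whose median log2 ratio was −0.61 against −0.21 for the list's other matched members. HSPA6 is shown at chr1:161524431-161524513 and SERPINH1 at chr11:75562142-75562224, both on the plus strand, with the match to the opposite strand in capitals.
HSPA6: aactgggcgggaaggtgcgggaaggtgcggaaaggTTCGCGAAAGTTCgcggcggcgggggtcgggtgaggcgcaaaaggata
SERPINH1: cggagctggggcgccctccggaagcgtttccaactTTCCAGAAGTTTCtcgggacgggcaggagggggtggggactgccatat

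Targets of the hypoxia-inducible factors were lower and had the lowest median of all lists with more than 10 members measured. These factors, led by HIF1A, are stabilised when oxygen is short and switch on genes for glycolysis, vessel growth and mitochondrial turnover. Of 25 measured genes on the list outside glycolysis, HIF1A and VHL included, 21 were below 0. On that list 16 were past −0.32 and none was past 0.32, with a median of −0.46. HILPDA, which coats lipid droplets, was not on that list and was at 314 FPKM in the control and 155 FPKM in the hairpin library (log2 ratio −1.01). CA9, a carbonic anhydrase of the cell surface, was at 3.23 and 0.953 FPKM (−1.11). ANKRD37 was at 25.5 and 14.4 FPKM (−0.78), and FAM162A, a mitochondrial protein, at 177 and 105 FPKM (−0.75). KDM3A, a histone demethylase, was at 44.5 and 28.5 FPKM (−0.62), and BNIP3, a receptor for the removal of mitochondria, at 31.7 and 20.5 FPKM (−0.61). VEGFA, the vessel growth factor, was at 19.1 and 13.5 FPKM (−0.47). HIF1A itself was at 23.0 and 16.4 FPKM (−0.46), and VHL, which marks it for degradation, at 21.7 and 25.4 FPKM (0.21).

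Glycolysis enzymes and transporters lay the same way, with 25 of 26 below 0, 13 past −0.32, none past 0.32 and a median of −0.31. LDHA, which makes lactate, was at 439 and 289 FPKM (log2 ratio −0.60). The lactate exporter SLC16A3 was at 26.0 and 16.3 FPKM (−0.64). PFKFB3, which makes the activator of phosphofructokinase, was at 11.2 and 6.87 FPKM (−0.64). PGK1 was at 376 and 253 FPKM (−0.57) and HK2, a hexokinase that starts the pathway, at 20.8 and 13.7 FPKM (−0.56). The 74 subunits of oxidative phosphorylation, which lies downstream, had a median of −0.01 with 1 past −0.32.

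The core letters of the hypoxia response element, ACGTG, were in 14 of 20 matched promoters of the hypoxia list (70.0%) and in 9 of 23 of the glycolysis list (39.1%), beside 25.9% of all promoters. Letters this short are found in many promoters. Matched members with the letters had a median log2 ratio of −0.50 on the hypoxia list, against −0.40 for those without. On the glycolysis list the medians were −0.40 and −0.34. The stretch of ANKRD37, chr4:185396644-185396737, holds 3 matches, and that of FAM162A, chr3:122384063-122384137, holds 1. Both are on the plus strand with matches to either strand in capitals.
ANKRD37: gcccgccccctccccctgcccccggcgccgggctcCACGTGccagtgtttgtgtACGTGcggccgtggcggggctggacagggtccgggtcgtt
FAM162A: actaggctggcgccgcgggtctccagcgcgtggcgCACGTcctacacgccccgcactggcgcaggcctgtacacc

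**Figure D3:**
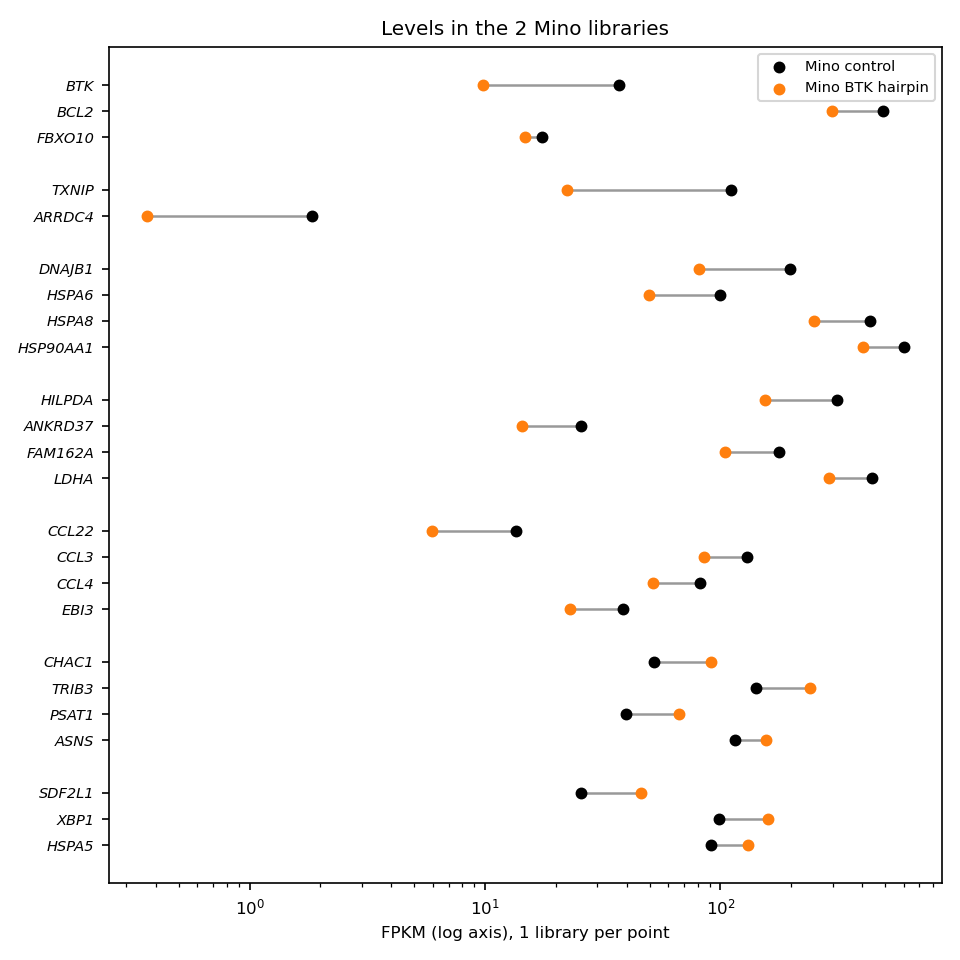
Levels of 24 genes named in the text, in FPKM on a log axis, with the Mino control library in black and the Mino hairpin library in orange, 1 library per point. The hairpin point lies left of the control for BTK through EBI3 and right of it for CHAC1 through HSPA5.

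NF-kB target genes were lower in the hairpin library in nearly every member measured. The NF-kB factors carry signals of the B cell receptor to genes for chemokines, costimulation and survival. Of 26 measured targets, 25 were below 0, 13 were past −0.32 and none was past 0.32, with a median of −0.34. CCL22, a chemokine that attracts T cells, was at 13.6 FPKM in the control and 5.96 FPKM in the hairpin library (log2 ratio −1.07). EBI3, a cytokine subunit, was at 38.5 and 22.9 FPKM (−0.72). The chemokines CCL3 and CCL4, known to be made by B cells on receptor engagement, were at 130 and 85.0 FPKM (−0.60) and at 82.1 and 51.8 FPKM (−0.65). Both have near-identical copies, so their reads may have been split. They were also lower in the Z138 hairpin library, CCL3 at 60.4 and 19.0 FPKM (−1.62) and CCL4 at 7.49 and 2.45 FPKM (−1.30). RGS1, a brake on chemokine receptors, was at 15.7 and 10.4 FPKM in Mino (−0.56), and CD83, an activation marker, at 34.2 and 23.7 FPKM (−0.51). TNF, LTA, LTB and IER3 were listed at 0 in both Mino libraries and give no ratio. These zeros do not show that the genes were silent. The tRNA synthetase gene VARS and the ribosomal protein gene RPS18 were also listed at 0 in all 4 libraries, and an exact 0 can be a failed estimate.

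Of 20 measured subunits, kinases and inhibitors of NF-kB, 15 were below 0 and 5 were past −0.32, with a median of −0.06. The inhibitors NFKBIE (46.2 and 31.0 FPKM, log2 ratio −0.56) and TNFAIP3 (22.2 and 15.1 FPKM, −0.52) and the subunit REL (17.2 and 11.7 FPKM, −0.52), which are themselves known targets, lay lowest. RELA, the main activating subunit, was at 49.5 and 53 FPKM (0.10). The letters of an NF-kB site, GGG and TTCC with 3 bases between them, were in 7 of 22 matched target promoters (31.8%) against 7.6% of all promoters. The 7 were EBI3, RGS1, CFLAR, IL2RA, BIRC3, STX11 and TNFRSF9, with a median log2 ratio of −0.46 against −0.21 for the other matched members. The site is shown in capitals for EBI3, chr19:4229274-4229353, and RGS1, chr1:192575632-192575711, on the plus strand.
EBI3: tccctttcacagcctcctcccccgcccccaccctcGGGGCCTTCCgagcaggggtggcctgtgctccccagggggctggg
RGS1: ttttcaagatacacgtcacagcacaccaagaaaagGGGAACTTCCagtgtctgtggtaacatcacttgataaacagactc

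Early response genes, which are transcribed within minutes of receptor and MAP kinase signals, had 30 of 34 members below 0, with 17 past −0.32, 1 past 0.32 and a median of −0.28. JUN, a subunit of AP-1, was at 16.9 FPKM in the control and 8.40 FPKM in the hairpin library (log2 ratio −0.93). DUSP1, which switches MAP kinases off, was at 20.5 and 12.1 FPKM (−0.72), and EGR1 at 22.8 and 15 FPKM (−0.57). Lower levels were read for EGR3 (4.33 and 1.94 FPKM, −0.86) and FOS (4.36 and 2.29 FPKM, −0.70). MYC was at 63.9 and 46.6 FPKM (−0.45). The exception was ATF3, which ATF4 is known to induce, at 23.2 and 31.8 FPKM (0.44). In Z138, 22 of 33 members were below 0 against 43.4% of all symbols, 7 were past −0.32 beside a background of 3.40%, 1 was past 0.32, and the median was −0.11. The Mino levels of NR4A1, an orphan nuclear receptor, were 25.7 and 18.9 FPKM (−0.43), and its Z138 levels 12 and 4.62 FPKM (−1.21). SPRY2, a brake on RAS signalling, was at 4.46 and 1.94 FPKM in Z138 (−0.89) and EGR3 at 0.957 and 0.437 FPKM (−0.44). JUN (0.384 and 0.586 FPKM, 0.20) and EGR1 (21.5 and 25.5 FPKM, 0.24) lay above 0 there.

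In the B cell receptor pathway itself the differences were smaller. Of 29 measured members of the receptor and its proximal signalling, 21 were below 0, 3 were past −0.32 and none was past 0.32, with a median of −0.12. NFATC1, a transcription factor released by calcium, was at 51.2 and 39.0 FPKM (log2 ratio −0.38), and RASGRP3, which activates RAS, at 37.7 and 29.2 FPKM (−0.36). SYK, upstream of BTK, was at 22.6 and 21.0 FPKM (−0.10), and PLCG2, its substrate, at 43.4 and 37.7 FPKM (−0.20). Among the 8 measured TEC family kinases and BTK regulators, all below 0, those past −0.32 were BTK and SH3BP5, a BTK inhibitor, at 18.8 and 14.3 FPKM (−0.37). Of 14 measured inhibitory coreceptors, 11 were below 0 and 4 were past −0.32. FCRL2 was at 13.4 and 6.04 FPKM (−1.04), and CD72 at 34.7 and 21.7 FPKM (−0.65). FCRLA, an intracellular relative, was on the other side at 36.8 and 54.3 FPKM (0.55).

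Within the BCL2 family, the members that inhibit cell death and those that promote it lay mostly on the same side. Of 7 inhibitors 6 were below 0, with a median of −0.24, and of 11 measured promoters of death 9 were below 0, with a median of −0.15. BCL2 had the lowest ratio of the inhibitors at 5 FPKM or more. BCL2A1, a known NF-kB target, was at 15.8 FPKM in the control and 11.1 FPKM in the hairpin library (log2 ratio −0.48). MCL1 was at 81.1 and 70.0 FPKM (−0.21) and BCL2L1 at 42.0 and 38.7 FPKM (−0.12). BCL2L12 was the one above 0, at 71.4 and 88.7 FPKM (0.31). Among promoters of death, BID was at 32.9 and 22.6 FPKM (−0.53), BBC3 at 52.6 and 39.3 FPKM (−0.41) and BCL2L11 at 87.1 and 65.3 FPKM (−0.41). Over the 13 genes of FBXO10 and SCF-type ligases the median was −0.05, and 1 of them, FBXW7, was past −0.32 at 8.69 and 6.35 FPKM (−0.40).

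The 7 measured metallothioneins, small metal-binding proteins switched on by zinc and oxidants, were all below 0, 4 of them past −0.32, with a median of −0.44. MT1X was at 938 FPKM in the control and 521 FPKM in the hairpin library (log2 ratio −0.85), MT1G at 92.0 and 52.8 FPKM (−0.79), and MT1H at 41.1 and 23.4 FPKM (−0.78). MT2A, the most abundant, was nearly level at 4688 and 4623 FPKM (−0.02). These genes are close copies, so reads may be split among them. Of 25 measured oxidative stress genes, 19 were below 0, 3 were past −0.32 and 1 was past 0.32. Those past −0.32 were MT1X and MT1G again and HMOX1, which degrades haem, at 70.2 and 44.9 FPKM (−0.63). Past 0.32 was SLC7A11, also on the ATF4 list, at 3.74 and 5.3 FPKM (0.41). The core letters TGCACNC of the metal response element were in the 3 metallothionein promoters matched (MT1X, MT1H and MT2A) and in 11.6% of all promoters. MT1X is shown at chr16:56682313-56682433 on the plus strand, with its matches to either strand in capitals.
MT1X: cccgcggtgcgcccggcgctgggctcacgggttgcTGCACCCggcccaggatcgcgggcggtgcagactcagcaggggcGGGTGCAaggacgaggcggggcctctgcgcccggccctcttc

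Cholesterol genes were lower in 19 of 25, with 7 past −0.32, none past 0.32 and a median of −0.18. INSIG1, the retention factor of the sterol sensor, was at 86.0 FPKM in the hairpin library, or 62.3% of its control level (log2 ratio −0.68). SQLE, a controlled step of the pathway, was at 32.8 and 23.3 FPKM (−0.48). SREBF2, the transcription factor of these genes, was at 120 and 112 FPKM (−0.09). In Z138, where 43.4% of all symbols were below 0, 23 of 25 were below 0 with a median of −0.22, and SQLE stood at 14 and 9.70 FPKM (−0.48). Of 12 measured fatty acid genes, SCD, the desaturase, was lowest at 50.9 and 33.3 FPKM (−0.60), and the list's median was −0.11. The letters TCACNCCAC of the sterol element were in 1 of 19 matched cholesterol promoters (5.26%), that of SREBF2, and in 1.18% of all promoters. The other matched members had a median log2 ratio of −0.12, beside −0.09 for SREBF2.

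Growth and division genes gave mixed values. The 35 G2 and mitosis genes had 30 below 0, 5 past −0.32, none past 0.32 and a median of −0.16, with MKI67 at 27.0 and 19.3 FPKM (log2 ratio −0.46) and the kinesin KIF20A at 30.9 and 22.8 FPKM (−0.42). The 40 DNA replication genes had 20 on each side, with a median of 0.00, and the replication initiator CDC6 was at 31.5 and 39.8 FPKM (0.33). The 36 genes of MYC and ribosome biogenesis had a median of −0.10 and 4 members past −0.32, among them NPM1, a nucleolar chaperone, at 774 and 609 FPKM (−0.35). Cytosolic ribosomal protein genes had a median of 0.06 over 77 members, with 54 above 0 and RPS29 highest at 5357 and 7003 FPKM (0.39). The 36 proteasome subunits had a median of 0.01 and none past 0.32 or −0.32.

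Genes of B cell identity lay on both sides. XBP1 was the highest of 27 measured mantle cell lymphoma and B lineage regulators, whose median was −0.09. PRDM1, the regulator of plasma cell fate, was at 6.64 and 3.95 FPKM (log2 ratio −0.63), and POU2AF1, a coactivator at immunoglobulin genes, at 53.9 and 36.7 FPKM (−0.54). Of 20 surface antigens 17 were below 0 and 5 were past −0.32. CD37, a tetraspanin, was at 769 and 560 FPKM (−0.46), and FCER2, the low-affinity IgE receptor, lay above 0 at 4.27 and 7.53 FPKM (0.70). Among 24 measured homing and adhesion genes, whose median was −0.11, CD44 was at 106 and 70.0 FPKM (−0.59) and CCR7 at 92.8 and 66.5 FPKM (−0.47). CXCR4, the receptor that holds these cells in tissue, was level at 145 and 144 FPKM (−0.01). Interferon-stimulated genes had a median of 0.01, with 3 of 41 past 0.32 and 3 past −0.32. On the FOXO and AKT list 15 of 20 were below 0 with a median of −0.19, and TCL1A, an AKT coactivator, was at 673 and 502 FPKM (−0.42). The mTOR list had a median of 0.01 over 21 members, with EIF4EBP1, a translation brake, at 80.8 and 119 FPKM (0.55) and also on the ATF4 list. Medians were −0.06 for 8 genes of MHC class II presentation and for 28 cell cycle inhibitors and p53 targets, −0.07 for 17 plasma cell genes and −0.01 for 30 autophagy genes. The class II median leaves out HLA-DRA, HLA-DMB, HLA-DOA and HLA-DOB, each listed at 0 in at least 1 Mino library. Over the 6 class II genes with a mean of 5 FPKM or more it was −0.22.

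Set beside the Z138 pair, which has its own control, 28 of the 41 list medians lay nearer 0 in Z138. ATF4 targets had a median of 0.38 in Mino and −0.08 in Z138, and unfolded protein response genes 0.26 and 0.00. Small nucleolar RNA host genes had 0.18 and −0.12. Hypoxia targets had −0.46 and −0.02, NF-kB targets −0.34 and −0.02, and heat shock proteins −0.19 and 0.09. Glycolysis had −0.31 in Mino and −0.13 in Z138, with 19 of 26 members below 0 in Z138 beside 43.4% of all symbols. Histone cluster genes went the other way round: their median was −0.03 over 46 symbols in Mino and 0.77 over 56 symbols in Z138. In Mino they lay on both sides, with 13 past 0.32 and 10 past −0.32, beside 3.80% and 5.04% of all symbols. Of the Z138 symbols, 42 were past 0.32 beside a background of 4.57%, and none was past −0.32. Most of the histone symbols were at low levels in Mino, and over the 11 with a mean of 5 FPKM or more the Mino median was −0.35, against 0.60 over 18 such symbols in Z138. The Mino levels of HIST1H2BD, which encodes histone H2B, were 16.9 and 10.5 FPKM (−0.64), and its Z138 levels 7.52 and 16.7 FPKM (1.06). Histone genes are close copies, so their reads may have been split. Z138 libraries held several of the genes at far lower levels, such as HSPA6 (0.49 and 0.219 FPKM), FCRL2 (0.143 and 0.125 FPKM), EBI3 (0.172 and 0.378 FPKM) and CCL22 (listed at 0 in both), so their Z138 values were all below 1 FPKM. With 1 pair per line, a difference between the lines cannot be told apart from a difference between cultures, and none was tested.

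**Figure D4:**
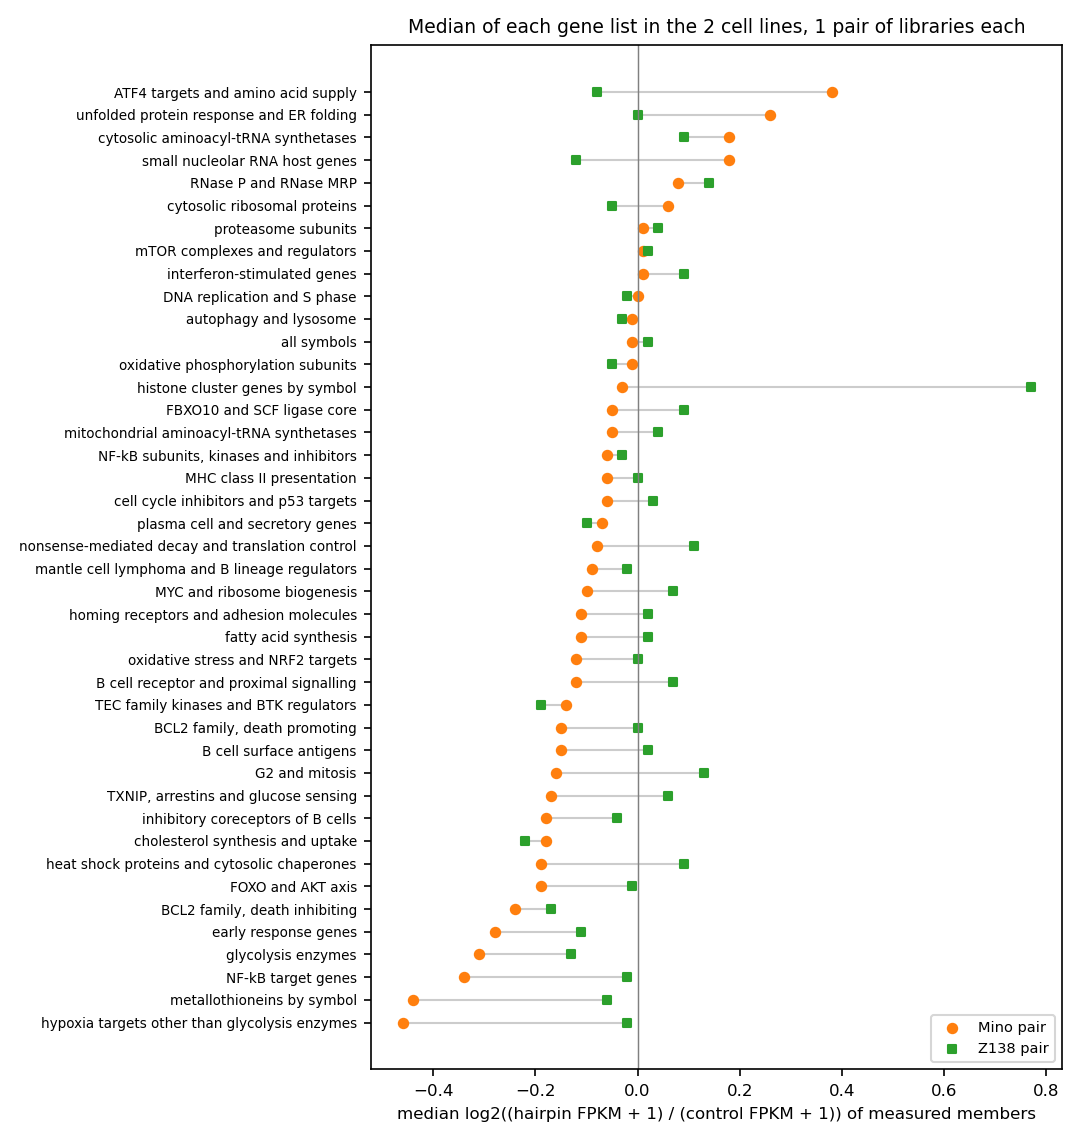
Median log2 ratio of hairpin to control (x axis) for each gene list (y axis), with the Mino pair as circles and the Z138 pair as squares, 1 pair of libraries per line. The Mino medians run from −0.46 (hypoxia targets) to 0.38 (ATF4 targets), and the highest Z138 median is that of histone cluster genes (0.77).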

How the data were processed

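RNA was sequenced from 4 cell line cultures, 2 of them used here as the compared pair. Per the labels' protocols, total RNA was extracted with RNeasy Plus kits and libraries were made with an Illumina TruSeq RNA kit. The authors deposited FPKM values, 1 column per library and 1 line per gene symbol. The submitters' processing notes name TopHat and hg19. The program that computed FPKM, its annotation, its filters and its use of strand were not given in the sources used here. FPKM are not counts: of 1227 symbols with values up to 0.1 FPKM, 8.88% shared the most frequent control to hairpin ratio, 0.94, within 0.025 on the log2 scale, so whole reads were not recovered and depth stays unknown.

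Symbols at 0 in either Mino library were left out. The log2 ratio used a pseudocount of 1 FPKM. Counts are at 2-fold, 1.5-fold and 1.25-fold (a log2 ratio of 0.32 or −0.32 after rounding), with no test. The members and lists were chosen with earlier results of these data known, so no list is independent evidence. There were 39 gene lists, 2 families taken by symbol and 8 marker lists. Named genes were BTK, BCL2 and FBXO10, the 15 highest and 15 lowest ratios with a mean of 5 FPKM or more, the 5 highest and lowest at 100 FPKM, the 3 on either side of 2-fold, and of each list up to 6 members with the largest ratio at 5 FPKM and its regulator. A few list members below 5 FPKM, members shown as exceptions and the genes said to be so were named after their values were seen. Small noncoding, antisense, unnamed and readthrough symbols were not ranked, except RMRP and RPPH1.

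Promoters came from RefSeq (GRCh38.p14), and GC content and transcript length from GENCODE release 29, which gave 13943 symbols (91.8%) a value. Python 3.11.15, pandas 2.3.3, numpy 2.4.6, patsy 1.0.2 and matplotlib 3.10.9 were used. The ratio step was tested on simulated data. The 8 alternatives listed beforehand were 2 other pseudocounts, 2 minimum levels, keeping zeros, 2 rescalings and removal of GC and length trends, and 1 was added after the data had been seen (without small noncoding RNAs).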

Additional observations from a re-analysis of the deposited data

Results flagged for a closer look

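Among the 800 listed or named genes with a mean of 5 FPKM or more in each line, the log2 ratio of hairpin to control was past 0.32 in 1 line and past −0.32 in the other for 14 (1.75%), and over all 6878 symbols at that level it was so for 52 (0.756%). The 800 include genes named for the highest and lowest Mino ratios, and the lists were chosen with results of these data known. A larger share than over all symbols was thus favoured by the choice, and no conclusion is drawn from it. The difference given for each gene is its Mino log2 ratio minus its Z138 log2 ratio. TXNIP, the arrestin that restrains glucose uptake, stood at 111 (control) and 22.2 FPKM (hairpin) in Mino and at 56.4 and 79.4 FPKM in Z138, a difference of −2.76. KLF10, also on the list of glucose sensing, had a difference of −1.34, from the levels given above.

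For MFAP4, a microfibril protein, with 27.6 and 48.0 FPKM in Mino and 42.0 and 21.4 FPKM in Z138, the difference was 1.72. FCER2, the low-affinity IgE receptor, had Mino levels of 4.27 and 7.53 FPKM and Z138 levels of 42.3 and 27.8 FPKM (1.29). SLC6A9, a glycine importer, was at 4.96 and 9.04 FPKM in Mino and 24.9 and 19.1 FPKM in Z138 (1.12). ASS1, the enzyme that joins citrulline and aspartate, was at 98.1 and 160 FPKM in Mino and 206 and 161 FPKM in Z138 (1.05). The small nucleolar RNA host genes ZFAS1 and SNHG15 had differences of 0.86 and 0.85, and MZB1, a folding factor of antibody-secreting cells, one of 0.77. These 7 were higher in the Mino hairpin library and lower in that of Z138.

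Lower in the Mino hairpin library and higher in that of Z138, besides TXNIP and KLF10, were the histone genes HIST1H2BD (−1.69) and HIST1H2AC (−0.97), HIF1A (−0.81), the kinetochore gene CENPF (−0.78) and CACYBP (−0.74). The Mino levels of HIF1A were 23.0 and 16.4 FPKM, and its Z138 levels 8.88 and 11.6 FPKM. There was 1 library per line and vector, and none of these differences was tested.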

How the results depend on the processing

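Counts of symbols past a fold depended mostly on how low values were treated. At least 2-fold higher were 19 symbols, which became 112 with a pseudocount of 0.1, 9 with a pseudocount of 5, 10 at a mean of at least 5 FPKM, 44 with symbols at 0 in 1 library kept, and 10 without small noncoding RNAs, an alternative chosen after seeing the data. At least 2-fold lower were 21, which became 137, 4, 11 and 36 under the first 4 of these. At least 1.5-fold higher were 95, against 452, 35 and 43 with the pseudocounts of 0.1 and 5 and the 5 FPKM minimum, and at least 1.5-fold lower were 145, against 551, 44 and 80. The minimum of 1 FPKM, median centring, equal totals without ribosomal protein and small RNA genes, and removal of GC and length trends kept each count within 1.5 times. Equal totals moved the median of all symbols from −0.01 to 0.03. Of the 256 log2 ratios of single genes checked, 10 moved by 0.1 or more with a pseudocount of 0.1 and 45 with a pseudocount of 5, and none of those past 0.32 or −0.32 turned sign under an alternative. Of 41 list medians, those that moved by 0.1 or more under an alternative belonged to 8 lists. With a pseudocount of 0.1 they became −0.80 for metallothioneins, −0.32 for TXNIP and its relatives and −0.39 for inhibitory coreceptors. With a pseudocount of 5 they became −0.14 for metallothioneins, −0.19 for NF-kB targets, −0.13 for early response genes, −0.30 for hypoxia targets and −0.07 for inhibitory coreceptors. At a mean of at least 5 FPKM they became −0.35 for histone cluster genes, −0.78 for metallothioneins, −0.22 for MHC class II genes and −0.31 for inhibitory coreceptors, which were at −0.30 with the minimum of 1 FPKM. With zeros kept, MHC class II genes were at 0.05. The cause was not tested, except that a larger pseudocount by construction shrinks ratios of low genes. No paired analysis was possible because each Mino group held 1 library, which makes only 1 pair. A fit over both lines with the line as a term was not run. With 1 library per vector, no library could be left out, and with depth unknown no interval for counting error can be given for genes at low FPKM.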
